A study of Homo sapiens with 9 samples.

Results

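The mitochondrial respiratory chain genes followed here are named genes whose symbols belong to the chain's nuclear-encoded subunit and assembly families, found by the starts of their symbols and their isoform letters. The rule itself used no measured values, but it was chosen with earlier results of these data known. The rule matched 36 named rows of the array table and 34 genes; 1 of these, UQCRBP1, was a pseudogene and was dropped. That left 33 genes of the 14884 tested, 31 protein-coding and 2 non-coding. They comprised 5 genes of complex III, 16 of complex IV, 3 of complex V, 6 assembly factors, the supercomplex factor COX7A2L and the non-coding transcripts NDUFA6-DT and NDUFB2-AS1. None of the structural NDUF subunits of complex I was among them, nor were SDHA, SDHB, SDHC and SDHD of complex II. No named row matched those genes, so complexes I and II are represented here by assembly factors alone.

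The respiratory chain sits in the inner mitochondrial membrane. Complex I and complex II feed electrons from NADH and succinate into ubiquinone, complex III passes them to cytochrome c, complex IV passes them to oxygen, and complex V uses the resulting proton gradient to make ATP. Most subunits are encoded in the nucleus, made in the cytosol and imported, and their promoters are classic targets of NRF1 and of ETS factors such as GABPA. Several complex IV subunits exist as a common isoform and one restricted to lung, heart and skeletal muscle, or testis.

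RNA was measured in MDA-MB-231, an established triple-negative breast cancer cell line, on Affymetrix Human Gene 2.0 ST arrays. JQ1 binds the bromodomains of the BET proteins, readers of acetylated histones, and displaces them from chromatin. There were 3 arrays from cells given 500 nM JQ1 for 12 h, 3 from cells given 500 nM JQ1 for 24 h, and 3 control arrays from cells given no agent, labelled as time 0. The labels name no vehicle, and the controls match neither treatment time, so JQ1, any solvent and time in culture cannot be told apart. Whether the 3 arrays of a group came from separate cultures is not stated, so p-values measure the spread between these arrays alone, and that spread may be technical.

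Values were on a log2 scale, with array medians between 4.92 and 4.96, so a rise or fall is relative to all genes measured on an array. In cells sampled in bulk, fewer cells of a type and less RNA per cell cannot be told apart. Over the 9 arrays the markers of this line VIM, AXL, CD44 and ZEB1 averaged 10.5, 11.7, 7.48 and 7.06. Markers that the line lacks or holds at a low level, ESR1, PGR and EPCAM, averaged 5.04, 4.09 and 6.26, and the endothelial markers PECAM1 and KDR averaged 4.26 and 4.87. Levels of different genes are not comparable on an array, so these values rank no gene; the median of the named rows was 6.05. EPCAM fell at 12 h and ZEB1 fell at 24 h by the test used below, and the other markers did not pass it. No leukocyte or muscle marker was named on the array table used. Control 3 stood apart from the other controls: across all rows it correlated with controls 1 and 2 at r = 0.9832 and 0.9828, while these correlated with each other at 0.9948. For the respiratory chain genes, control 3 read higher than the mean of controls 1 and 2 in 21 and lower in 12, with a median difference of 0.14, against -0.01 over all genes. Counts of genes that passed the test against control are given with and without it, and most other counts are given with it alone. No 2 arrays held identical values.

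Promoter sequences are shown for 4 genes with an NRF1 or ETS motif and for COX7B2, the gene with the largest difference at 24 h. Of the 31 protein-coding genes, 26 had a listed promoter, taken from RefSeq on GRCh38.p14 and reaching 250 bases before to 50 bases after the gene's start. All motifs were searched on both strands. The NRF1 site, GCGC and TGCGC separated by any 1 base, was in the promoters of 5 of 26 genes (19.2%), against 10.3% of 9707 protein-coding genes measured. The ETS core CCGGAAG was in 10 of 26 (38.5%, against 17.9%), the YY1 site AAGATGGCG in 2 (7.69%, against 3.57%), and the E-box CACGTG, a motif that MYC can bind, in 0 (against 11.3%). The ETS core and the YY1 site can overlap, since the first ends with the letters that open the second. A match is a description of these letters, not of binding, and COX4I2, COX6C, COX7A1, UQCRB and UQCRHL had no listed promoter. Each stretch below is 90 of the 250 bases before the start, on the gene's strand, 5′ to 3′, with a motif match in capitals. The stretches of the 4 genes with a motif end at the start, and that of COX7B2 stops short of it. COX6B1 (chr19:35648233-35648322, plus strand) and COX6A1 (chr12:120438023-120438112, plus strand) carried the ETS core, here on the opposite strand. UQCRC1 (chr3:48609647-48609736, minus strand) and ATP5MJ (chr14:103921530-103921619, minus strand) carried the NRF1 site. COX7B2 (chr4:46909266-46909355, minus strand) had no match to these motifs in its 250 upstream bases.
COX6B1: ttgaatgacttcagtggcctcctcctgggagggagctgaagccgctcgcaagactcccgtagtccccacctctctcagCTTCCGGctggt
COX6A1: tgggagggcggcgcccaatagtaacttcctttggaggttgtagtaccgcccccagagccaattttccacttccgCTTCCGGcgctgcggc
UQCRC1: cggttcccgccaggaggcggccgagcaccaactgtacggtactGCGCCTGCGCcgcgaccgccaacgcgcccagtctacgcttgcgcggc
ATP5MJ: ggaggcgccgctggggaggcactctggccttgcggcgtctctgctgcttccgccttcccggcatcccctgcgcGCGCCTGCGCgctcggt
COX7B2: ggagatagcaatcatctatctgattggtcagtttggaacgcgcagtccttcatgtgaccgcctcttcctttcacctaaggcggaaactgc

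The comparisons with control asked whether JQ1 changed RNA from these genes at 12 h and at 24 h. Differences were small. At 12 h none of the 33 genes passed the test (limma, Benjamini-Hochberg adjusted p under 0.05), where 7.93% of all genes did, and at 24 h 1 of 33 (3.03%) passed, where 11.5% of all genes did. The gene that passed was UQCRHL, which rose. Without adjustment, p was under 0.05 for 6 genes at 12 h, where 21.6% of all genes met that limit, and for 9 at 24 h, where 25% did. The median difference over the 33 genes was 0.08 at 12 h and 0.14 at 24 h, against 0.01 over all genes in both comparisons. The difference was above 0 for 29 genes at 12 h and 27 at 24 h, where 53% and 53.5% of all genes were above 0. Both comparisons use the same control arrays. The 95% confidence interval of the difference lay within a 2-fold change either way for all 33 genes at 12 h and for 32 at 24 h, the exception being COX7B2. It lay within a 1.5-fold change for 27 and 26 genes.

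**Figure D1:**
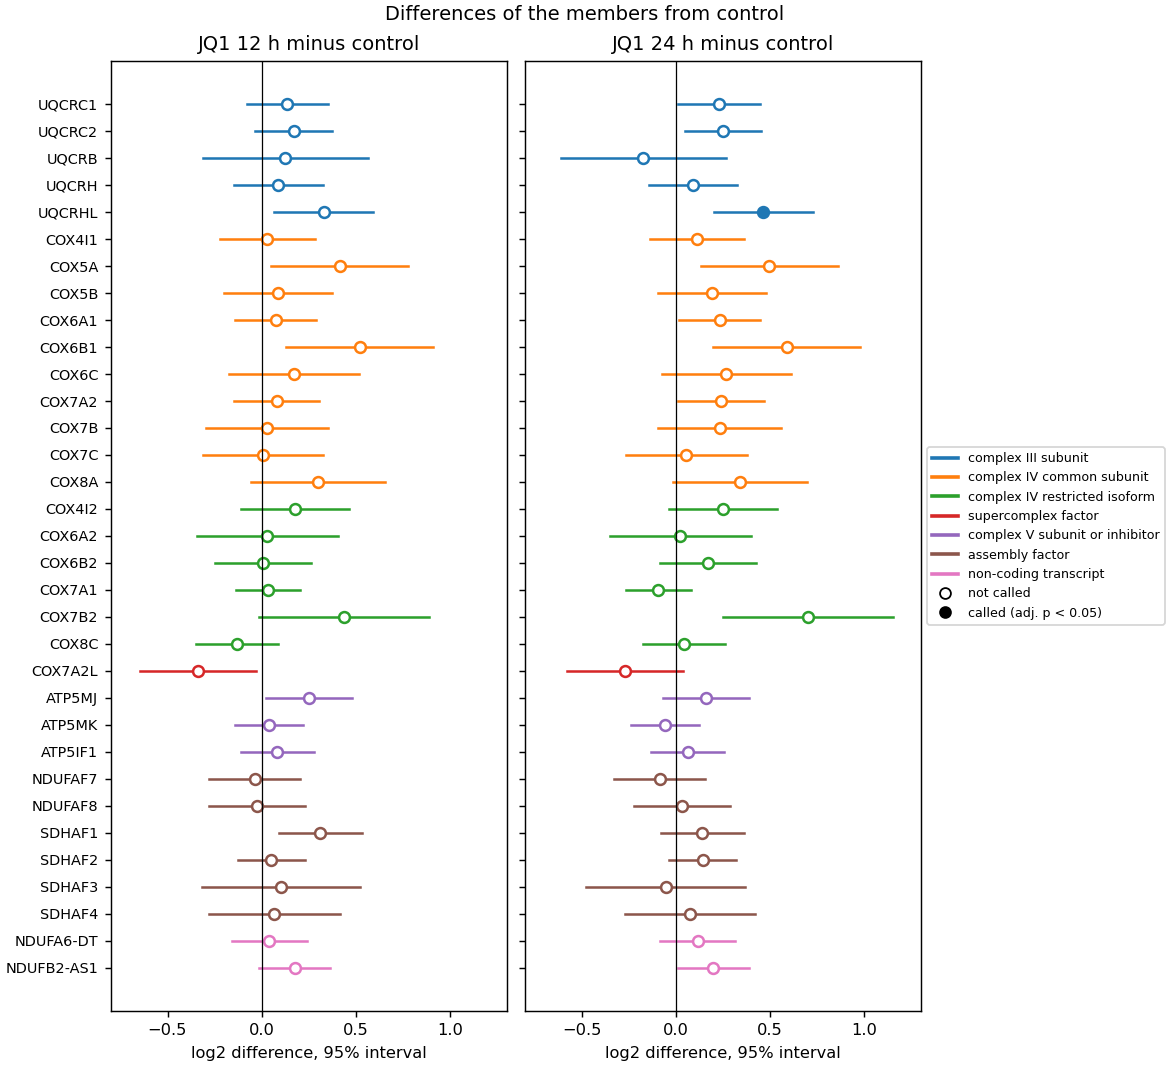
Log2 difference from control (horizontal axis) of each respiratory chain gene at JQ1 12 h (left) and JQ1 24 h (right), with its 95% confidence interval from the limma fit over 9 arrays; colours mark the complexes and filled points adjusted p under 0.05. Only UQCRHL at 24 h is filled, at 0.46, and most intervals span 0 in both panels.

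Complex III hands electrons from ubiquinol to cytochrome c. UQCRHL, an intronless copy of the hinge subunit gene UQCRH, read 9.29, 9.54 and 9.31 in the JQ1 12 h arrays, 9.41, 9.46 and 9.67 in the JQ1 24 h arrays, and 9.10, 8.86 and 9.19 in the control arrays. Every treated array was above every control. It rose at 24 h by 0.46 (SE 0.12, a 1.38-fold difference, limma adjusted p = 0.033). At 12 h the difference was 0.33 (SE 0.12, limma adjusted p = 0.13). The 24 h call did not hold when some arrays were left out: limma adjusted p was 0.076 without control 1, 0.11 without control 2, 0.051 without JQ1 12 h replicate 3, 0.064 without JQ1 24 h replicate 1, 0.064 without replicate 2 and 0.13 without replicate 3. UQCRH itself averaged 6.94 ± 0.02 at 12 h, 6.94 ± 0.12 at 24 h and 6.85 ± 0.19 in controls (SD, n = 3 each). Its difference was 0.09 in both comparisons, with limma adjusted p of 0.73 at 12 h and 0.68 at 24 h. The coding sequences of the pair are nearly the same, so whether the row named UQCRHL measured that gene alone is uncertain.

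The core proteins of complex III, UQCRC1 and UQCRC2, are needed for its assembly. UQCRC2 read 11.13, 11.24 and 11.21 at 12 h, 11.23, 11.22 and 11.37 at 24 h, and 10.91, 10.97 and 11.19 in controls. The 24 h arrays lay above all 3 controls, and 1 of the 12 h arrays did not. Its difference was 0.17 at 12 h (limma adjusted p = 0.33) and 0.25 at 24 h (SE 0.09, limma adjusted p = 0.12). UQCRC1, whose promoter holds the NRF1 site shown above, read 9.72, 9.57 and 9.45 at 12 h, 9.76, 9.54 and 9.71 at 24 h, and 9.53, 9.41 and 9.39 in controls. Its groups overlapped at 12 h and were apart by a narrow margin at 24 h, with a difference of 0.23 (SE 0.10, limma adjusted p = 0.17). UQCRB, the ubiquinone-binding protein, was the 1 complex III gene below 0 at 24 h, at -0.17 (SE 0.19, limma adjusted p = 0.67).

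Complex IV, cytochrome c oxidase, was measured through 10 common nuclear subunits. These surround the catalytic core, which mitochondrial DNA encodes and which was not analysed here. All 10 differences from control were above 0 in both comparisons, with medians of 0.08 at 12 h and 0.24 at 24 h. With all arrays, 0 of 10 passed the test in either. Without control 3 the 12 h differences of COX4I1 and COX6A1 were -0.05 and -0.03. The others stayed above 0, as did all 10 at 24 h. At 24 h all 3 treated arrays were above all 3 controls for 5 of the 10, COX5A, COX6A1, COX6B1, COX7A2 and COX8A. Over the full set of 33 this held for 9 genes at 24 h (27.3%, where 13.3% of all genes met it), the others being UQCRHL, UQCRC1, UQCRC2 and COX4I2. At 12 h it held for UQCRHL and SDHAF1 (6.06%, where 11.3% of all genes met it). The gap between the groups at 24 h was narrow for UQCRC1, COX5A, COX7A2 and COX8A. No gene had all treated arrays below all controls in either comparison, where 10.9% of all genes did at 12 h and 12.8% at 24 h.

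COX6B1, a subunit on the intermembrane side that helps hold the dimer together, had the largest difference among the common subunits in the rows used. It read 8.14, 8.39 and 8.02 at 12 h, 8.25, 8.11 and 8.39 at 24 h, and 7.59, 7.36 and 8.05 in controls. Control 3 lay among the 12 h arrays and close below the 24 h arrays, well above the other controls. The difference was 0.52 at 12 h (SE 0.17, limma adjusted p = 0.11) and 0.59 at 24 h (SE 0.17, limma adjusted p = 0.060). COX5A, a matrix-side subunit, read 10.70, 10.75 and 10.56 at 12 h, 10.68, 10.75 and 10.82 at 24 h, and 10.10, 9.98 and 10.68 in controls. Control 3 again sat at the level of the treated arrays, at 10.680 just below the lowest 24 h array, 10.683. COX5A differed from control by 0.41 at 12 h (SE 0.16, limma adjusted p = 0.17) and 0.49 at 24 h (SE 0.16, limma adjusted p = 0.085).

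**Figure D2:**
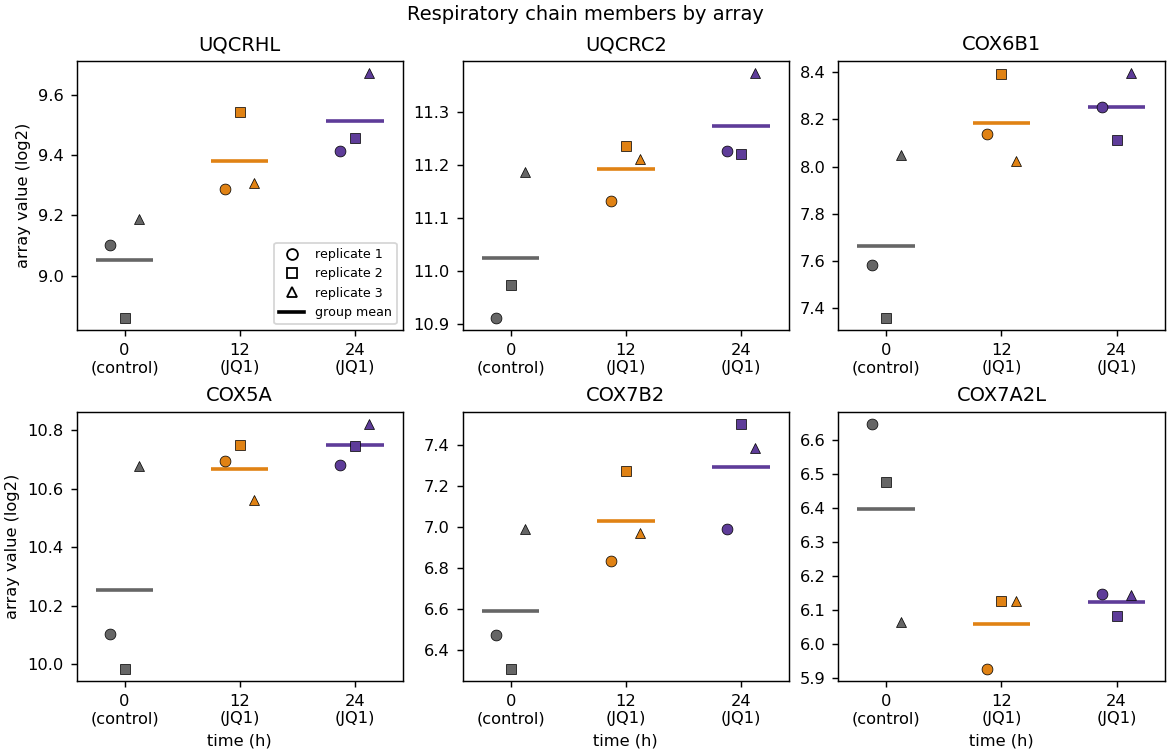
Log2 array values (vertical axis, its range set per gene) of 6 respiratory chain genes by time in hours; points are single arrays, shaped by replicate number, and bars are group means. For COX6B1, COX5A and COX7B2, control 3 (triangle at time 0) reads 8.05, 10.68 and 6.99, near the treated arrays and above controls 1 and 2, and for COX7A2L it reads 6.07, below them.

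Among the other common subunits the differences were smaller in the rows used. COX8A, the smallest subunit, read 11.25, 11.33 and 10.75 at 12 h, 11.22, 10.95 and 11.28 at 24 h, and 10.95, 10.81 and 10.67 in controls. Its 24 h arrays lay above the controls by a narrow margin, for a difference of 0.34 (SE 0.16, limma adjusted p = 0.22). COX6A1, whose promoter holds the ETS core shown above, read 12.58, 12.51 and 12.45 at 12 h, 12.71, 12.63 and 12.68 at 24 h, and 12.55, 12.53 and 12.23 in controls. Its 24 h arrays were also above all of the 12 h arrays. COX6A1 lies on chromosome 12, but the row used is numbered between those of PPARD and TOMM6 on chromosome 6. Whether that row measured COX6A1 alone is uncertain. A second, dimmer row of COX6A1, with a mean of 3.84, differed by 0.77 at 12 h and 0.41 at 24 h (limma adjusted p of 0.22 and 0.54 over all rows). COX7A2 read 7.13, 7.09 and 6.94 at 12 h, 7.16, 7.09 and 7.39 at 24 h, and 7.08, 6.96 and 6.89 in controls. At 24 h the limma adjusted p was 0.17 both for COX7A2 and for the row of COX6A1 used, with differences of 0.24 and 0.23. COX4I1, the common form of the subunit at which ATP inhibits the enzyme, read 10.26, 10.20 and 10.00 at 12 h, 10.11, 10.19 and 10.40 at 24 h, and 10.25, 10.15 and 9.97 in controls. The 3 groups overlapped, with a difference of 0.11 at 24 h (limma adjusted p = 0.63). The remaining common subunits, COX5B, COX6C, COX7B and COX7C, differed from control by between 0.06 and 0.27 at 24 h, with overlapping groups.

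The 6 restricted isoforms of complex IV did not pass the test in either comparison, and only COX4I2, at 24 h, had treated arrays apart from the controls. COX7B2, a testis isoform of COX7B, had the largest difference of all 33 genes at 24 h. It read 6.84, 7.28 and 6.97 at 12 h, 6.99, 7.50 and 7.38 at 24 h, and 6.47, 6.31 and 6.99 in controls. Controls 1 and 2 were below every treated array, while control 3 was level with the lowest of the 24 h arrays. The difference was 0.44 at 12 h (SE 0.20, limma adjusted p = 0.25) and 0.70 at 24 h (SE 0.20, a 1.63-fold difference, limma adjusted p = 0.054). COX7B, the common form, averaged 7.11 ± 0.20 at 12 h, 7.32 ± 0.24 at 24 h and 7.09 ± 0.14 in controls (SD, n = 3 each).

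COX4I2, the lung form, read 6.48, 6.09 and 5.95 at 12 h, 6.23, 6.28 and 6.23 at 24 h, and 5.92, 6.09 and 5.98 in controls. Its 24 h arrays were above the controls, at a difference of 0.25 (SE 0.13, limma adjusted p = 0.27). The heart and muscle forms gave no ordered groups. COX6A2 read 5.35, 5.07 and 4.68 at 12 h, 5.07, 4.81 and 5.20 at 24 h, and 4.90, 4.99 and 5.11 in controls, and COX7A1 read 4.90, 4.85 and 4.91 at 12 h, 4.69, 4.85 and 4.75 at 24 h, and 4.94, 4.78 and 4.84 in controls. Their differences at 24 h were 0.02 for COX6A2 and -0.09 for COX7A1. The testis forms COX6B2 and COX8C also had overlapping groups. COX6B2 read 5.05, 4.62 and 4.87 at 12 h, 4.91, 5.02 and 5.11 at 24 h, and 4.75, 4.92 and 4.85 in controls, and COX8C read 3.18, 3.12 and 2.88 at 12 h, 3.28, 3.18 and 3.25 at 24 h, and 3.30, 3.18 and 3.09 in controls. Levels of different genes on an array are not comparable, so no isoform is ranked against another.

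COX7A2L, which holds complexes III and IV together in supercomplexes, had the lowest difference of the 33 genes in both comparisons. It read 5.93, 6.13 and 6.13 at 12 h, 6.15, 6.08 and 6.14 at 24 h, and 6.65, 6.48 and 6.07 in controls. Controls 1 and 2 were above every treated array and control 3 was among them. The difference was -0.34 at 12 h (SE 0.14, limma adjusted p = 0.19) and -0.27 at 24 h (SE 0.14, limma adjusted p = 0.26).

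Because control 3 decided several of these groups, the counts were recomputed without it, which leaves 2 controls against 3 treated arrays. Then 6 of 33 genes (18.2%) passed the test at 12 h, where 20.1% of all genes did, and 6 at 24 h, where 20.9% did. COX5A, COX6B1, COX7B2 and UQCRHL rose and COX7A2L fell in both comparisons, with ATP5MJ rising at 12 h and UQCRC2 at 24 h. The difference of COX5A was then 0.63 at 12 h (limma adjusted p = 0.0010) and 0.71 at 24 h (limma adjusted p = 0.00051), and that of COX6B1 was 0.71 (0.0041) and 0.78 (0.0025). COX7A2L was then at -0.50 at 12 h (limma adjusted p = 0.0043) and -0.44 at 24 h (limma adjusted p = 0.0085). The shares called without control 3 were thus close to those of all genes. The 24 h count of 1 also fell to 0 when any of 6 other arrays was left out, those named for UQCRHL above. The share of all genes called was then 5.28% to 9.78%, against 11.5% with all arrays.

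**Figure D3:**
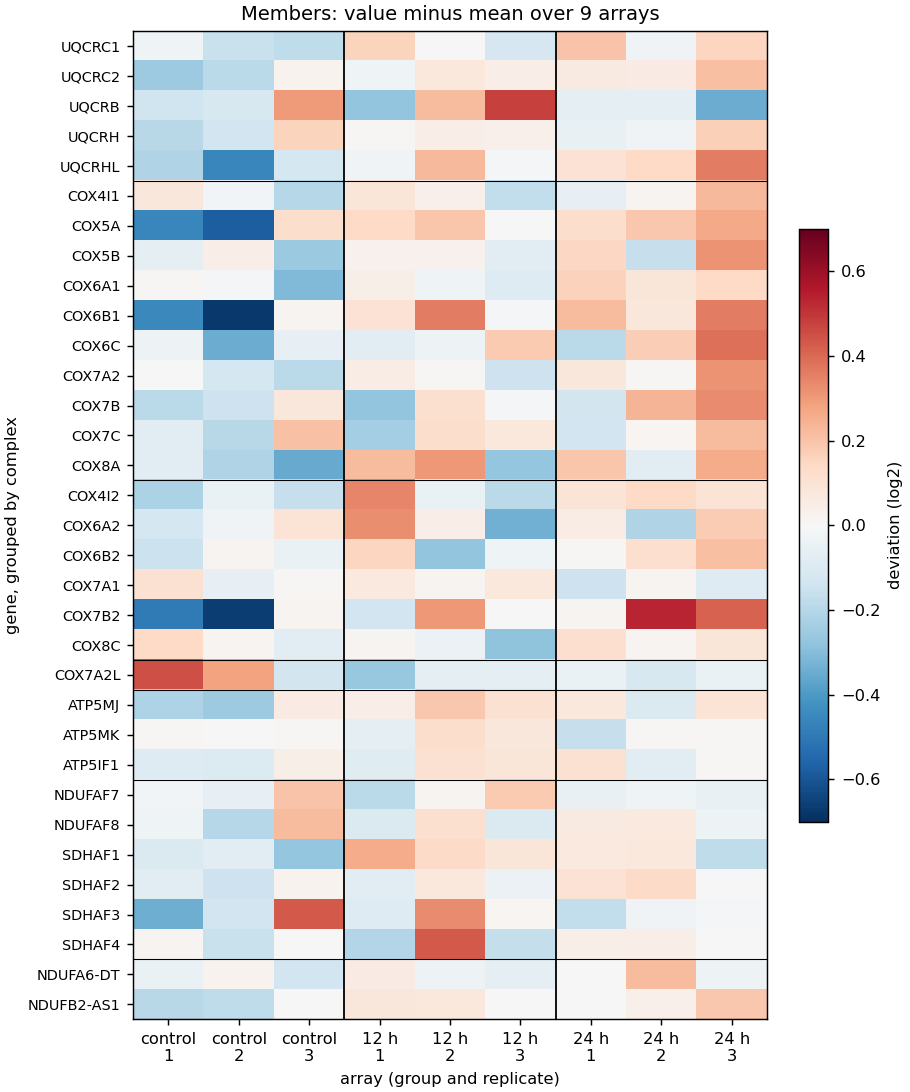
Deviation of each respiratory chain gene on each array from its mean over the 9 arrays (log2, colour scale from blue below to red above the mean); rows are genes grouped by complex and columns are arrays. The median over the 33 genes is -0.08, -0.13 and 0.01 in controls 1, 2 and 3, lies between -0.01 and 0.07 in the 12 h arrays, and reaches 0.15 in JQ1 24 h replicate 3.

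In complex V, the ATP synthase, only small accessory proteins and the inhibitor were named. ATP5MJ, a small membrane-sector subunit, averaged 6.74 ± 0.07 at 12 h, 6.65 ± 0.11 at 24 h and 6.49 ± 0.17 in controls (SD, n = 3 each). Its difference was 0.25 at 12 h (SE 0.10, limma adjusted p = 0.18) and 0.16 at 24 h (limma adjusted p = 0.40). ATP5MK, which stabilises the enzyme's dimers, differed from control by 0.04 at 12 h and -0.06 at 24 h. ATP5IF1, which blocks ATP hydrolysis when the proton gradient collapses, read 6.71, 6.90 and 6.88 at 12 h, 6.90, 6.72 and 6.80 at 24 h, and 6.70, 6.70 and 6.84 in controls. The groups overlapped, and the 95% confidence interval of its 24 h difference ran from -0.13 to 0.25.

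The 6 assembly factors build complexes I and II. SDHAF1, which delivers iron-sulfur clusters to SDHB, had the lowest adjusted p of the 33 genes at 12 h. It read 6.94, 6.82 and 6.76 at 12 h, 6.75, 6.76 and 6.50 at 24 h, and 6.58, 6.60 and 6.41 in controls. All 12 h arrays were above the controls and the 24 h arrays overlapped them. Its difference was 0.31 at 12 h (SE 0.10, limma adjusted p = 0.093) and 0.14 at 24 h (limma adjusted p = 0.45). SDHAF2, which attaches flavin to SDHA, and SDHAF3 and SDHAF4, which protect SDHB and SDHA during assembly, differed from control by between -0.05 and 0.14 in both comparisons. The complex I factors NDUFAF7, a methyltransferase, and NDUFAF8 lay between -0.09 and 0.03.

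The 2 non-coding transcripts lie beside complex I genes, NDUFA6-DT divergent from NDUFA6 and NDUFB2-AS1 antisense to NDUFB2. NDUFB2-AS1 differed by 0.17 at 12 h (limma adjusted p = 0.27) and 0.20 at 24 h (limma adjusted p = 0.18), and whether its probes separate the strands was not tested. NDUFA6-DT had a pair of rows that gave different answers. The brighter one, used throughout, differed by 0.04 at 12 h and 0.12 at 24 h and was not called. The dimmer one read 4.92, 5.16 and 4.96 at 12 h, 4.79, 4.70 and 4.94 at 24 h, and 4.23, 4.53 and 4.15 in controls, with every treated array above every control. Its difference was 0.70 at 12 h (SE 0.12, limma adjusted p = 0.022 over all rows) and 0.50 at 24 h (limma adjusted p = 0.057 over all rows).

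JQ1 24 h was set against JQ1 12 h to ask whether the genes moved further with longer treatment. None of the 33 genes passed the test, where 0.00672% of all genes (1 gene) did, and the lowest limma adjusted p was 0.81. Without adjustment, p was under 0.05 for 0 of 33, where 6.69% of all genes met that limit. The median difference was 0.07, against 0.0006 over all genes. Of the 33 genes 24 were above 0 and 9 below, where 50.2% of all genes were above 0. The differences ran from -0.30 for UQCRB to 0.26 for COX7B2. Without JQ1 24 h replicate 3 the median was -0.0003, and without JQ1 12 h replicate 3 it was 0.0272. All 10 common complex IV subunits were above 0, with a median of 0.09. The 24 h arrays were above all 12 h arrays for COX6A1 (3.03%, where 5.76% of all genes met this) and below them for SDHAF1 (where 7.11% of all genes did). The 95% confidence interval lay within a 2-fold change either way for all 33 genes.

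Other mitochondrial genes from 7 lists were read in the same fit. The lists were drawn up with earlier results of these data known, so their counts are a description beside those of all genes. At 24 h 5.17% of all genes rose and 6.34% fell, and at 12 h 3.54% rose and 4.39% fell. Only 2 of 19 listed subunits outside the symbol rule were named. CYC1, cytochrome c1 of complex III, differed by 0.02 at 12 h and 0.08 at 24 h and did not pass the test (limma adjusted p of 0.96 and 0.74), nor did COXFA4L3. CYCS, TFAM and PPARGC1A were not analysed here.

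Some genes that supply the chain were higher. Of 13 measured genes of the tricarboxylic acid cycle and pyruvate entry, 3 rose at 12 h and 4 at 24 h, and none fell, with median differences of 0.23 and 0.30. OGDH, a subunit of the 2-oxoglutarate dehydrogenase complex, averaged 10.89 ± 0.10 at 12 h, 10.95 ± 0.12 at 24 h and 10.06 ± 0.05 in controls (SD, n = 3 each). It rose by 0.83 at 12 h (limma adjusted p = 0.0014) and 0.89 at 24 h (limma adjusted p = 0.00069). MPC1, of the mitochondrial pyruvate carrier, rose by 0.81 and 0.60 (limma adjusted p of 0.0021 and 0.0046), and PDHB, of pyruvate dehydrogenase, by 0.46 and 0.55 (0.039 and 0.014). MPC2, the partner of MPC1, rose by 0.33 at 24 h (limma adjusted p = 0.021). Of 9 measured genes for the other enzymes that reduce ubiquinone (ETFDH, DHODH, GPD2, SQOR, CHDH and PRODH) or serve its synthesis (COQ4, COQ8A and COQ9), 1 rose at 12 h and 3 at 24 h, and none fell. ETFDH, which brings in electrons from fatty acid oxidation, averaged 8.37 ± 0.12 at 12 h, 8.35 ± 0.09 at 24 h and 7.12 ± 0.31 in controls (SD, n = 3 each). It rose by 1.25 at 12 h (limma adjusted p = 0.0021) and 1.23 at 24 h (limma adjusted p = 0.0014). SQOR, a sulfide oxidising enzyme, and COQ9, of ubiquinone synthesis, rose at 24 h by 0.65 and 0.46 (limma adjusted p of 0.015 and 0.023).

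Import and expression genes were lower in part. Of 24 measured import translocase genes, 4 fell at 12 h and 5 at 24 h, and none rose, with median differences of -0.12 and -0.21. Without control 3 these medians were -0.04 and -0.07. TIMM9, an intermembrane space chaperone, averaged 7.60 ± 0.35 at 12 h, 7.50 ± 0.19 at 24 h and 8.58 ± 0.20 in controls (SD, n = 3 each). It fell by 0.98 at 12 h and 1.09 at 24 h (limma adjusted p of 0.013 and 0.0062). TIMM44, of the import motor, fell by 0.77 and 0.75, HSPA9, the matrix HSP70, by 0.63 and 0.82, and TOMM40L, a form of the outer membrane pore, by 0.61 and 0.66 (limma adjusted p between 0.0013 and 0.0072). TIMM10, the partner of TIMM9, fell at 24 h by 0.69 (limma adjusted p = 0.0067). Of 76 measured mitochondrial ribosomal protein genes, 6 fell and 0 rose at 12 h, and 9 fell and 1 rose at 24 h. MRPL15 fell by 0.71 and 0.84, MRPL3 by 0.64 and 0.74, MRPS35 by 0.61 and 0.55 and MRPS16 by 0.50 and 0.41, and MRPS14 rose by 0.63 at 24 h (limma adjusted p between 0.0083 and 0.045).

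**Figure D4:**
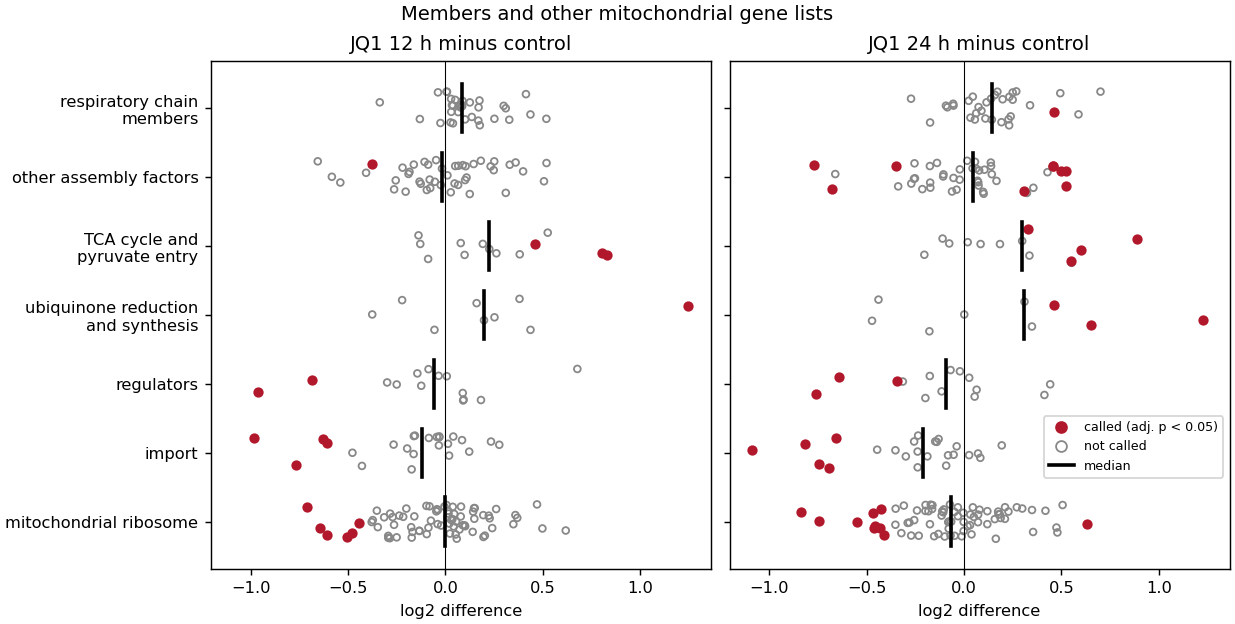
Log2 difference from control (horizontal axis) at JQ1 12 h (left) and JQ1 24 h (right) of the respiratory chain genes and of 6 other mitochondrial gene lists; each point is a gene, filled red where adjusted p is under 0.05, and bars are medians. The respiratory chain genes hold 0 filled points at 12 h and 1 at 24 h, the import genes 4 and 5, all below 0, and the tricarboxylic acid cycle and pyruvate genes 3 and 4, all above 0. SDHAF1, SDHAF2, SDHAF3 and SDHAF4 are drawn among both the respiratory chain genes and the other assembly factors.

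Among 14 measured regulators of mitochondrial gene expression, 2 fell at 12 h and 3 at 24 h, and none rose. MYC, a transcription factor with many targets among mitochondrial genes, averaged 9.08 ± 0.11 at 12 h, 9.28 ± 0.13 at 24 h and 10.04 ± 0.46 in controls (SD, n = 3 each). It fell by 0.96 at 12 h (limma adjusted p = 0.019) and 0.76 at 24 h (limma adjusted p = 0.036). TWNK, the helicase that replicates mitochondrial DNA, fell by 0.68 and 0.64 (limma adjusted p of 0.0031 and 0.0025). NRF1, the factor whose site was searched above, was at -0.25 at 12 h (limma adjusted p = 0.079) and fell by 0.35 at 24 h (limma adjusted p = 0.019). ESRRA, a nuclear receptor that acts with PGC-1 coactivators, differed by 0.09 at 12 h and 0.05 at 24 h (limma adjusted p of 0.74 and 0.84). Of 45 measured complex assembly factors, 1 fell at 12 h, and 6 rose and 3 fell at 24 h. This list also holds SDHAF1, SDHAF2, SDHAF3 and SDHAF4 of the respiratory chain genes, and the rest lie outside the symbol rule. TACO1, which activates translation of the mitochondrial COX1 message, fell by 0.38 at 12 h and 0.35 at 24 h (limma adjusted p = 0.039 in both). At 24 h COA7 and COA6, both complex IV assembly factors, fell by 0.77 and 0.68, and DMAC2 and TMEM242 rose by 0.52 each (limma adjusted p between 0.024 and 0.041).

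Some of these calls rested on single arrays. Under 18 alternatives, OGDH, MPC1, ETFDH, TIMM44, HSPA9, TOMM40L and TWNK were called in every one in both comparisons, and TIMM9, TIMM10 and MRPL3 in every one at 24 h. TACO1 and MRPS16 at 24 h aside, the other named calls from the lists held in fewer. They ran from 6 of 18 for DMAC2 at 24 h to 16 of 18 for SQOR and MRPL15 at 24 h and TIMM9 at 12 h. MYC lost its call at 12 h without control 1, control 2 or any of the 12 h arrays, and its highest limma adjusted p was 0.074 at 12 h and 0.12 at 24 h. The 24 h call of NRF1 did not hold with control 1, control 2 or replicate 1 or 3 of JQ1 24 h left out, with a limma adjusted p of up to 0.072. Without control 3, 20.1% of all genes passed the test at 12 h and 20.9% at 24 h, against 7.93% and 11.5% with all arrays. Tricarboxylic acid cycle and pyruvate genes then had 7 rises at 12 h and 8 at 24 h. Ribosomal protein genes then had 14 rises and 7 falls at 12 h, and 11 and 10 at 24 h, import genes 4 rises and 5 falls at 12 h, and 1 and 7 at 24 h. The 45 assembly factors then had 8 rises and 1 fall at 12 h, and 8 and 2 at 24 h. The regulators then had 1 rise and 2 falls at 12 h, and 1 and 3 at 24 h. The genes of ubiquinone reduction and synthesis then had 3 rises at 12 h and 5 at 24 h. With each of the other 8 arrays left out in turn, the ribosomal protein genes that fell numbered 0 to 5 at 12 h and 2 to 8 at 24 h, the import genes that fell 3 to 5 at 12 h and 5 at 24 h, and the tricarboxylic acid cycle and pyruvate genes that rose 2 to 3 at 12 h and 2 to 4 at 24 h. At 24 h the assembly factors then had 0 to 4 rises and 0 to 3 falls, fewer rises than the 6 with all arrays. The share of all genes called was also lower then than with all arrays, at 3.65% to 7.18% at 12 h and 5.28% to 10.1% at 24 h. The regulators that fell numbered 1 to 2 in each comparison, and the genes of ubiquinone reduction and synthesis that rose 1 to 2 at 12 h and 1 to 4 at 24 h.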

How the data were processed

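The data were 1 deposited table of 53617 rows and 9 arrays, with values from 2.01 to 13.88. The deposited log2 values were made by the authors with Transcriptome Analysis Console, per the submitters' processing notes; the log2 unit was inferred from the values, and the software's version, the background correction, normalization, summarisation and genome build are not given in the sources used here. Of the rows, 16098 had 1 gene symbol in the platform's gene table and 37519 are unnamed here. The row with the highest mean stood for a gene, giving 14884 genes. limma 3.58.1 (R 4.3.3) fitted 1 mean per group to all 9 arrays with empirical Bayes moderation, no filter on dim genes and Benjamini-Hochberg adjustment over all genes within each comparison; SE is the moderated standard error. The fit was tested on simulated data with equal spread on every array, which does not cover an array that stands apart. The arrays' number limits the precision.

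The genes, lists, naming rule and alternatives were chosen with earlier results of these data known. Values per array were given for the called respiratory chain gene, the 6 restricted complex IV isoforms, the common forms COX4I1, COX6A1, COX6B1, COX7A2 and COX8A, and UQCRC1, UQCRC2 and ATP5IF1; COX5A, COX7A2L, SDHAF1 and the second NDUFA6-DT row were added after their values were seen. From the lists, up to 4 called genes per comparison were named, with means or differences. Whether replicate numbers pair arrays is not stated. Correlations of same-numbered deviations between treated and control arrays ran from -0.316 to 0.172, and of other-numbered ones from -0.269 to 0.29. With 3 arrays a group these correlations cannot decide it. Alternatives were leaving out each array, a replicate block, 2 groups only, another prior, array weights, other scalings, a mean filter and other row rules.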

Additional observations from a re-analysis of the deposited data

How the results depend on the processing

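The 18 alternatives gave 591 values of single genes in each comparison. At 12 h 576 kept their side of the threshold, 15 gained a call and 0 lost one, and at 24 h 565 kept it, 17 gained a call and 9 lost one. At 24 h against 12 h none changed. No called difference reversed, while uncalled differences changed sign in 35, 9 and 31 values. At 12 h the number of respiratory chain genes called, 0 with the design used, was 8 with array weights. It was 1 with the mean of all rows per gene, where 7.78% of all genes were called. When each array was left out it was 0 to 6, where 3.65% to 20.1% of all genes were called. At 24 h the number, 1 with the design used, was 8 with array weights. It was 3 with quantile normalization, where 11.8% of all genes were called, and 3 with genes of mean at least 5, where 17.7% were. With the mean of all rows per gene it was 2, where 11.4% of all genes were called. It was 0 with only the 2 groups compared, where 6.68% were, and 0 with all rows tested, where 7.53% were. When each array was left out it was 0 to 6, where 5.28% to 20.9% of all genes were called. With array weights, control 3 had a weight of 0.213 and the others 0.692 to 1.973, and 23.5% and 25.3% of all genes were called, against 24.2% of the respiratory chain genes in both comparisons. The median difference at 12 h was 0.15 with array weights. The median of 24 h against 12 h ran from -0.0003, without JQ1 24 h replicate 3, to 0.0981 with 1 array left out. With the replicate block, 0 of 33 genes were called at 24 h, where 9.93% of all genes were, and UQCRHL had a limma adjusted p of 0.061. Whether the numbers pair the arrays is not known, and the block changed no other call of a respiratory chain gene. Causes were not tested. Slides, scan dates and detection calls were not used here, so a limit of detection cannot be given.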
